A study of Rattus norvegicus with 10 samples.

Results

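Ankfy1, Epn2, Avl9 and Nbea are 4 genes of membrane trafficking whose mRNAs were on the study's list of mRNAs that were lower in rat hearts after dexmedetomidine (DEX). They were also among the mRNAs that the study selected as predicted targets of miRNAs higher after DEX. They are 4 of the 165 mRNAs on the study's lists and 4 of the 20174 gene probes on the array. They were selected on the ratio of their mean signals on these same arrays (at least 1.5-fold lower in the DEX group) and its unadjusted p, so the lower signal in the DEX group is given here as a description with no test. mRNA was measured in the left ventricle of male Wistar rats weighing 250 to 350 g. The 5 rats of the control group received saline, and the 5 rats of the DEX group received dexmedetomidine, an alpha2 adrenergic receptor agonist, for 30 min. Per the methods, assignment was random, saline followed as a washout, and RNA came from the anterior wall of hearts not yet made ischemic, so the groups say nothing of ischemia. All rats carried no transgene that the labels name, and each rat had 1 array (Toray 3D-Gene Rat Oligo chip 20k, labelled with Cy5).

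Membrane trafficking moves proteins and lipids between the cell surface, the endosomes and the secretory pathway in vesicles. In endocytosis, clathrin and its adaptors bend a patch of the surface membrane inward, the vesicle fuses with an early endosome marked by the small GTPase Rab5, and its cargo is then recycled or sent to the lysosome. In cardiac muscle cells, surface receptors such as beta adrenergic receptors are taken up and returned along this route. Ankfy1 encodes rabankyrin-5, a Rab5 effector of early endosomes. Epn2 encodes epsin 2, a membrane-bending adaptor of clathrin-coated pits. Avl9 encodes a conserved protein of the late secretory pathway. Nbea (RGD1562629 in the older naming) encodes neurobeachin, a large BEACH domain scaffold that binds protein kinase A and takes part in the transport of membrane proteins, best known in neurons.

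The miRNAs that put these genes among the selected targets are shown because the seed, which pairs with the target mRNA, is what target prediction reads first. The study's prediction listed Ankfy1, Avl9 and Nbea under rno-miR-301b-3p and Epn2 under rno-miR-324-5p. The mature sequences are from RefSeq (GRCr8), 5′ to 3′, with the seed, bases 2 to 8, in capitals.
rno-miR-301b-3p: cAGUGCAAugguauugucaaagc
rno-miR-130a-3p: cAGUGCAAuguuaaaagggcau
rno-miR-130b-3p: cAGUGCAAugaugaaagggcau
rno-miR-324-5p: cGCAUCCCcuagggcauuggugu
Of the 724 rat mature miRNAs in the table, 3 had the seed of rno-miR-301b-3p, the other two being rno-miR-130a-3p and rno-miR-130b-3p. The seed of rno-miR-324-5p was found in 1, itself. Epn2 thus entered the selection through another seed than the other 3 genes. miRNA levels were not analysed here, so no relation between a miRNA and these mRNAs was tested.

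In GRCr8, the Ankfy1 gene lies on chr10:57810781-57882495 (plus strand) and Epn2 on the same chromosome at chr10:46697238-46759128 (minus strand). Avl9 lies on chr4:87291062-87338537 (plus strand) and Nbea on chr2:141930147-142489172 (minus strand). Promoters were compared because the 4 mRNAs were chosen for moving the same way. The 100 bases before the annotated start are shown for Ankfy1 and Nbea, whose starts lie at a gene end given above. They are also the pair whose windows differ most in base composition, and GGGCGG on either strand is in capitals.
Ankfy1 (chr10:57810681-57810780, plus strand): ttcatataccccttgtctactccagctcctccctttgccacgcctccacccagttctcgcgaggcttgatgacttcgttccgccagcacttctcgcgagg
Nbea (chr2:142489173-142489272, minus strand): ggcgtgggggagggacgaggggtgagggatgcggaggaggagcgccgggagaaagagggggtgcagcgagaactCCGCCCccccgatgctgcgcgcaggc
Over the 250 bases before the start, which for Avl9 lies 767 bases and for Epn2 36 bases inside the gene ends given above, the G and C content was 54.8% for Ankfy1, 60.8% for Epn2, 64.4% for Avl9 and 72% for Nbea. GGGCGG, searched on both strands, occurred 7 times before the Avl9 start, 2 times before that of Epn2 (for which 1 of 2 listed windows was read), 1 time before that of Nbea and 0 times before that of Ankfy1, and 30.5% of 33469 rat promoter windows of that length held it. CACGTG occurred 1 time before Nbea and 0 times before the other 3 genes, against 5.59% of all windows. Neither TGACGTCA (1.59% of all windows) nor TATAAA (12.9%) was present before any of the 4 genes. No motif searched was shared by all 4 windows.

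Each of the 4 mRNAs was detected on all 10 arrays. The arrays give 1 spot for each, and its signal is the spot's intensity minus the trimmed mean of the blank spots, scaled so that the median detected probe of an array equals 25. A spot counted as detected where it stood more than 2 SD of the trimmed blank spots above their mean, which on this scale was 1.37 to 1.76. This blank SD, used throughout, leaves out the most extreme blank spots. Levels of different probes are not set against each other, since probes differ in how well they bind.

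The normalized signal of Ankfy1, the Rab5 effector, was 11.3, 8.36, 11.0, 6.03 and 5.99 in control rats 1 to 5. In DEX rats 1 to 5 it was 5.54, 4.28, 5.39, 5.19 and 6.40. Control rats 1, 2 and 3 stood high, control rats 4 and 5 lay close to the DEX rats, and the groups overlapped through DEX rat 5. The control mean was 8.53 ± 2.57 and the DEX mean 5.36 ± 0.762 (SD, n = 5 each), a ratio of 0.628 and a log2 fold change of −0.63 (SE 0.22). The SD was 30.1% of the mean among control rats and 14.2% among DEX rats.

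For Epn2, the clathrin adaptor, control rats 1 to 5 gave 5.52, 2.95, 5.31, 3.60 and 4.25. DEX rats 1 to 5 gave 3.08, 2.90, 1.88, 4.04 and 2.11. DEX rats 2, 3 and 5 lay below every control rat, whereas DEX rat 4 lay above control rats 2 and 4, so the groups overlapped. The means were 4.32 ± 1.09 (SD, n = 5) and 2.80 ± 0.858 (SD, n = 5), a ratio of 0.648 and a log2 fold change of −0.64 (SE 0.26). Epn2 was the gene nearest to the detection limit: its spot stood 2.41 to 7.90 blank SDs above the blank mean. Before scaling, its mean above the blank was 4.72 intensity units in the control group and 3.20 in the DEX group. The SD of single blank spots after trimming was 0.720 to 1.09 units.

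For Avl9, the late secretory gene, the signals of control rats 1 to 5 were 7.84, 9.43, 7.57, 6.71 and 4.62. Those of DEX rats 1 to 5 were 5.67, 3.14, 4.08, 4.93 and 3.51. Control rat 5 was the only control rat within the range of the DEX group, and DEX rats 2, 3 and 5 lay below all control rats. The means were 7.23 ± 1.76 (SD, n = 5) and 4.26 ± 1.04 (SD, n = 5), a ratio of 0.590 and a log2 fold change of −0.76 (SE 0.23). Of the 4 genes, Avl9 had the lowest ratio, but the 4 log2 fold changes lay closer together than the standard error of any one of them.

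For Nbea, the BEACH domain scaffold, control rats 1 to 5 gave 40.07, 30.75, 34.46, 26.71 and 24.40. DEX rats 1 to 5 gave 23.19, 18.10, 17.21, 20.03 and 16.97. Every DEX rat lay below every control rat, with control rat 5 and DEX rat 1 nearest to each other. The means were 31.3 ± 6.24 (SD, n = 5) and 19.1 ± 2.58 (SD, n = 5), a ratio of 0.611 and a log2 fold change of −0.70 (SE 0.15). Its spot stood 19.3 to 57.4 blank SDs above the blank mean, against 5.71 to 16.2 for Ankfy1 and 4.0 to 11.2 for Avl9. In a piece of ventricle, fewer cells that hold an mRNA and less of it per cell cannot be told apart.

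**Figure D1:**
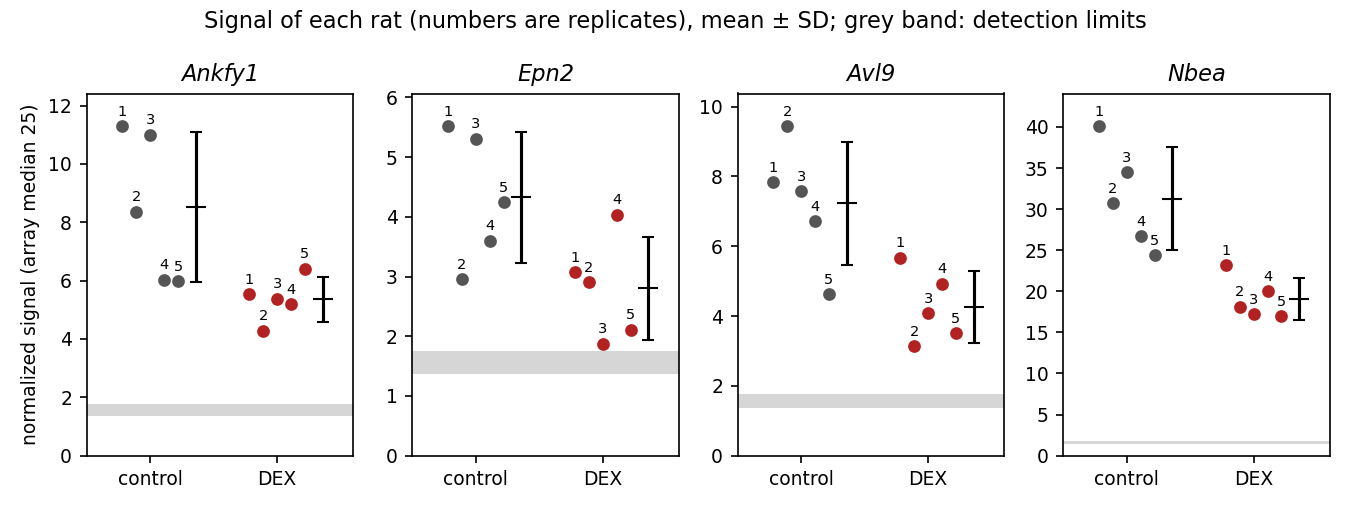
Normalized signal (median detected probe of an array = 25) of Ankfy1, Epn2, Avl9 and Nbea in each rat, grey for control and red for DEX, with replicate numbers, the mean and SD (n = 5) beside each group, and the range of the detection limits (1.37 to 1.76) as a grey band. The groups are apart only for Nbea, and Epn2 is the gene whose points come nearest to the band.

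Nbea was the 1 gene of 4 whose groups did not overlap, and every DEX array lay below every control array for 1.44% of the 14519 probes tested. All 4 genes were past the study's thresholds when they were set on limma's unadjusted p (under 0.05, at least 1.5-fold lower), as were 392 of the 14519 probes (2.7%), with 64 (0.441%) past them in the higher direction. The same contrast chose the genes, so nothing is read from either count. With limma and Benjamini-Hochberg adjustment over all probes, 0 probes had an adjusted p under 0.05 and the smallest was 0.148, while 2100 had an unadjusted p under 0.05. The count past adjustment was 0 with the methods' test, 2 with limma's variance trend and robust estimation, 2 with the blank mean of each spot's own block, and 19 without control rat 5. The ratio of Epn2, 0.648, was the nearest of the 4 to the selection threshold. The study's lower list reached to Gal3st4 with a ratio of 0.669, which falls slightly short of 1.5-fold lower. The first lower probe outside the list, among those with p under the study's threshold, had 0.670.

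The whole array leaned the same way as the 4 genes. The log2 fold change was below 0 for 79.9% of the probes tested, with a median of −0.17, where the 4 genes had a median of −0.67. When arrays were instead scaled on the 12718 probes detected on all 10, the median of all probes moved to −0.02. Ankfy1 then stood at −0.48, Epn2 at −0.49, Avl9 at −0.61 and Nbea at −0.55. The mean of the blank spots, which is subtracted from every spot, was 58.8 ± 1.43 intensity units (SD, n = 5) on control arrays and 61.4 ± 1.01 (SD, n = 5) on DEX arrays (two-sided exact permutation test, p = 0.0159). Before scaling, the DEX mean minus the control mean was −3.11 units for Ankfy1, −1.52 for Epn2, −3.01 for Avl9 and −12.2 for Nbea. With the blank mean as a covariate the log2 fold changes were −0.22 for Ankfy1, −0.18 for Avl9, −0.28 for Nbea and −0.54 for Epn2. Blank mean and group moved together on these arrays, and their parts in the lower signals were not tested further.

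Position on the array was also examined, since each of the 24 blocks of spots has 56 blanks of its own. In the block of the Ankfy1 spot the local blank was 0.254 to 1.30 units above the blank mean of the array, and in that of Epn2 it differed from that mean by −1.25 to −0.279 units. For Epn2 this local offset came to between −47.4% and −6.70% of the spot's signal. With the blank mean of each spot's own block the log2 fold change was −0.78 for Ankfy1, −0.49 for Epn2, −0.84 for Avl9 and −0.71 for Nbea. Epn2 thus became the smallest of the 4 and Nbea moved least.

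**Figure D2:**
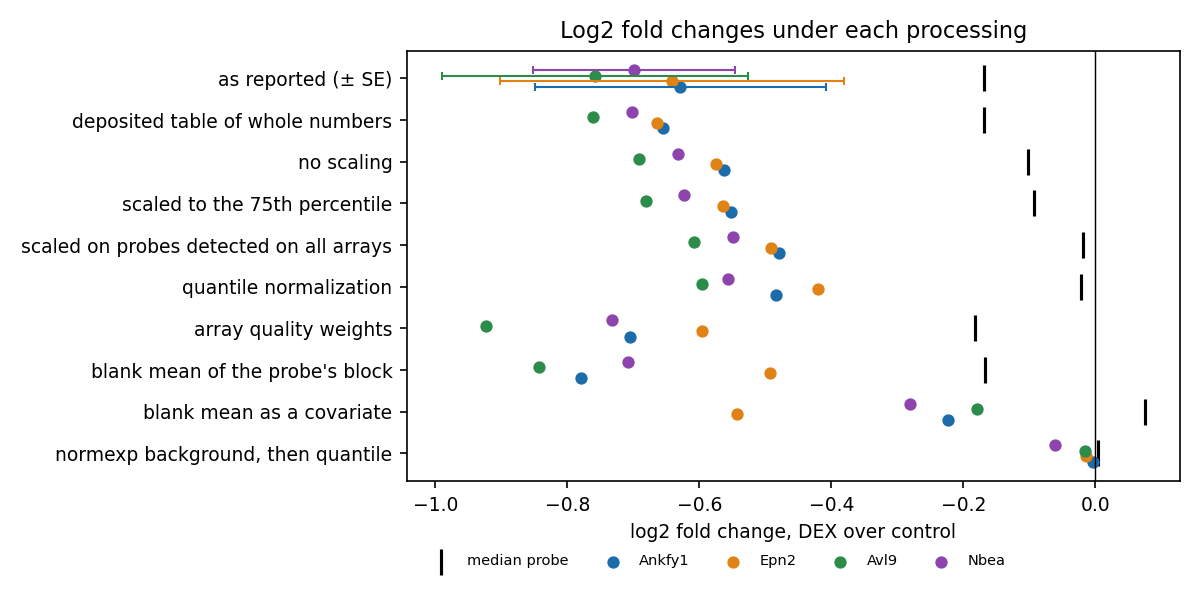
Log2 fold change (DEX over control) of Ankfy1, Epn2, Avl9 and Nbea under 10 ways of processing the arrays, each on its own line, with the standard error for the values as reported and a black tick at the median of all probes tested. All 4 genes stay left of the median probe on every line, a position that their choice on these same arrays favours. They lie close to 0 only with normexp, which uses the scanner's background measure in place of the blank mean and adds an offset of 50.

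Whether rats high in one trafficking mRNA were also high in another is a question the choice of the genes did not settle, once each group's mean is removed. The pairs Avl9 with Nbea and Ankfy1 with Nbea had the highest r, with values close to each other whose order turned under several alternatives, and Epn2 had low r with Ankfy1 and Avl9. Epn2 was also nearest to the detection limit, and the part of spot noise in its r was not tested. With the blank mean of each spot's own block, its r was 0.43 with Ankfy1 and 0.12 with Avl9. None of the 6 pairs was past an adjusted p of 0.05, and each pair lay within the range of the other probes on these arrays.

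Control rat 1 was above the control mean in all 4 genes on the log2 scale, by 0.46 for Ankfy1, 0.39 for Epn2, 0.15 for Avl9 and 0.38 for Nbea. Control rat 3 was likewise above it in all 4, by 0.42, 0.33, 0.10 and 0.16. DEX rat 1 was the 1 DEX rat above its group mean in all 4, by 0.06, 0.19, 0.45 and 0.29. Other rats were mixed. Control rat 2 was high in Avl9 (0.42) and low in Epn2 (−0.51), and DEX rat 4 was high in Epn2 (0.58) with Ankfy1 near its mean (−0.03). Control rat 5 was low in Ankfy1 (−0.46), Avl9 (−0.61) and Nbea (−0.34) but not in Epn2 (0.01).

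**Figure D3:**
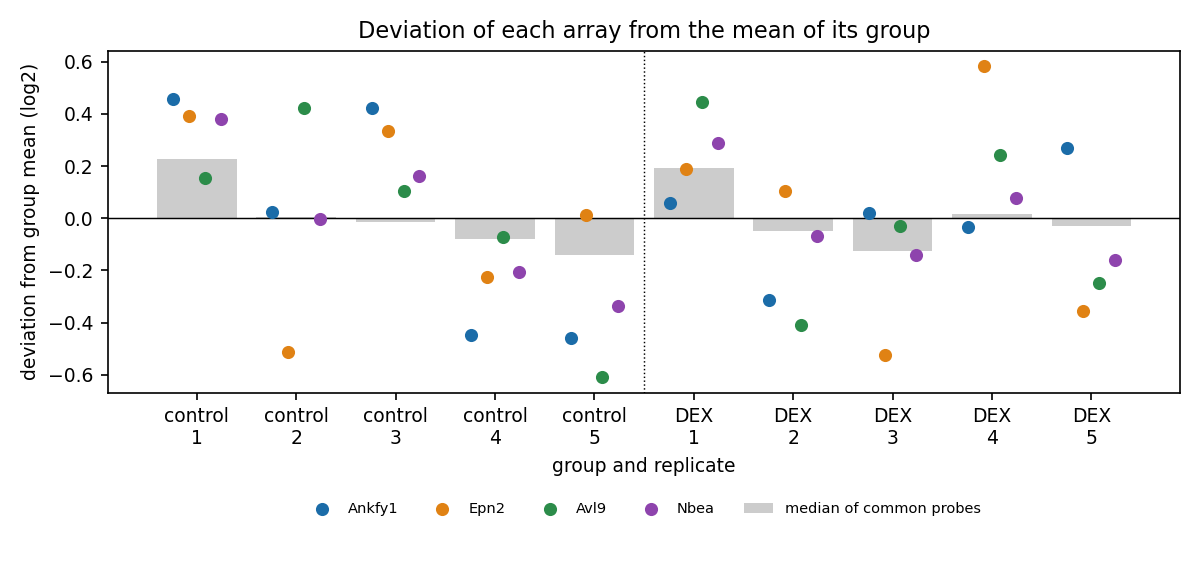
Deviation of each array from the mean of its group (log2 units) for Ankfy1, Epn2, Avl9 and Nbea, with grey bars for the deviation of the median of the 12718 probes detected on all arrays. Nbea follows the bars closely, with control rat 1 and DEX rat 1 highest on both, whereas Epn2 departs from them in control rat 2 and DEX rat 4.

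Over the 10 arrays, the deviations of Avl9 and Nbea had Pearson's r = 0.73 (two-sided exact permutation within groups, p = 0.0280) and Spearman's rho = 0.77 (exact permutation p = 0.0153). They had the same sign on 9 of 10 arrays, and r was 0.62 without the 2 arrays farthest from the median in Avl9. In the limma fits over all probes the adjusted p was 0.300 for Nbea fitted on Avl9 and 0.0644 for Avl9 fitted on Nbea, so this pair did not pass. Its unadjusted exact permutation p was also above 0.05 without control rat 3 (0.0552), control rat 5 (0.106), DEX rat 1 (0.105) or DEX rat 5 (0.0510), each left out alone.

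Ankfy1 and Nbea had r = 0.71 (exact permutation p = 0.0629) and rho = 0.73 (exact permutation p = 0.0597), with the same sign on 6 of 10 arrays. Without the 2 arrays farthest from the median in Ankfy1, control rats 4 and 5, r was 0.28. With 1 rat left out, r was 0.58 without control rat 1, 0.66 without control rat 4 and 0.59 without control rat 5. Within groups, r of Ankfy1 and Nbea was 0.96 over the 5 control rats and −0.07 over the 5 DEX rats. Their deviations had the same sign in 4 of 5 control rats and in 2 of 5 DEX rats, and a difference between the groups was not tested. Epn2 and Nbea had r = 0.59 (exact permutation p = 0.0876) and rho = 0.64 (exact permutation p = 0.0608), with r = 0.68 without the 2 arrays farthest in Epn2. Ankfy1 and Avl9 had r = 0.50 (exact permutation p = 0.179) and rho = 0.50 (exact permutation p = 0.158). For Ankfy1 and Avl9, r was −0.00 without the 2 farthest arrays. The pairs of Epn2 with Ankfy1 (r = 0.22, rho = 0.25, exact permutation p = 0.540 and 0.488) and with Avl9 (r = 0.14, rho = 0.28, exact permutation p = 0.703 and 0.459) were weakest as computed on all arrays. Without the 2 arrays farthest in the first gene, r was 0.15 for Ankfy1 and Epn2 and 0.55 for Epn2 and Avl9. Ankfy1 and Epn2 had the same sign in 3 of 5 control rats (r = 0.59) and 1 of 5 DEX rats (r = −0.40). Over these 5 pairs, limma's adjusted p ranged from 0.0729 to 0.878.

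These correlations stood against a high background. The median r with all 14518 other probes was 0.38 for Ankfy1, 0.30 for Epn2, 0.43 for Avl9 and 0.58 for Nbea. Of the other probes, 28.5% were more like Nbea than Avl9 was and 9.77% were more like Avl9 than Nbea was. Likewise 8.38% were more like Ankfy1 than Nbea was, and 31.1% were more like Nbea than Ankfy1 was. For Ankfy1 and Epn2, 68.1% were more like Ankfy1 than Epn2 was, and 58.5% were more like Epn2 than Ankfy1 was. Against the other 147 mRNAs of the study's lower list the median r was 0.40, 0.25, 0.39 and 0.59 for Ankfy1, Epn2, Avl9 and Nbea.

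**Figure D4:**
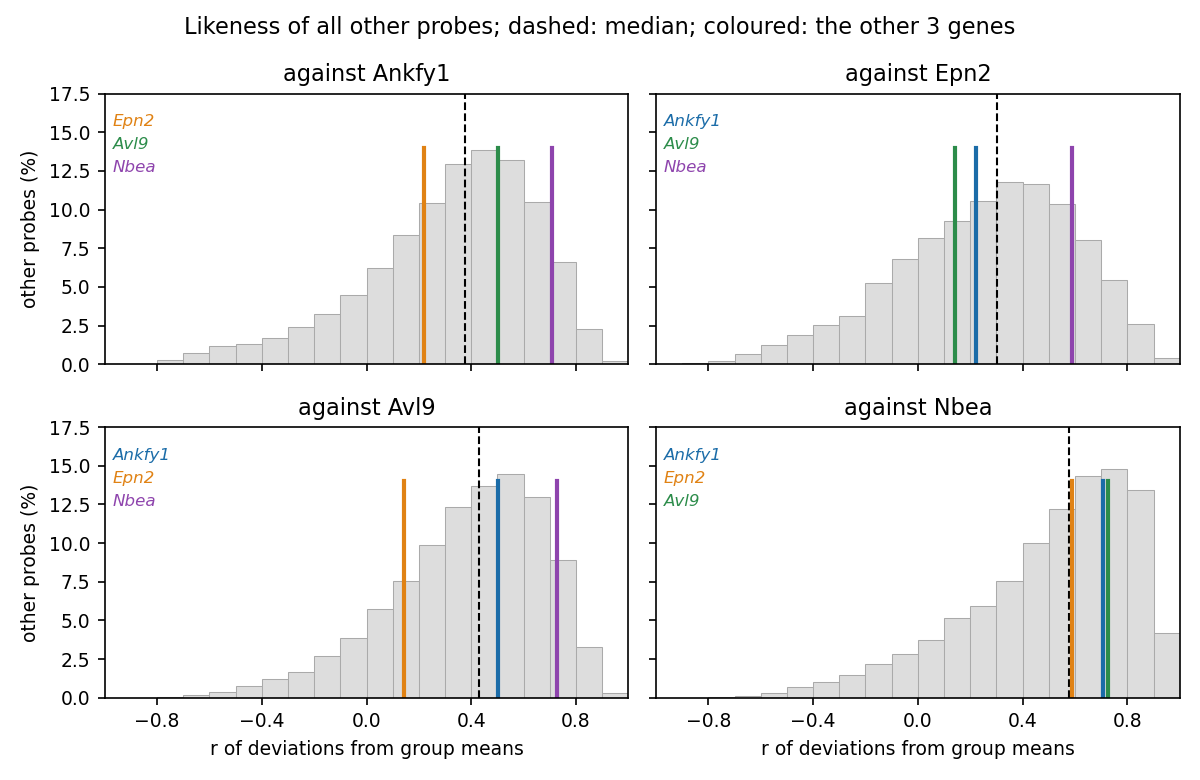
Distribution of r between the deviations of each gene and those of all 14518 other probes (percent of probes per bin of r, 10 arrays), with the median as a dashed line and coloured lines at the r of the other 3 genes. The coloured lines all lie within the range of the grey bars. Those of Nbea lie in the upper part against Ankfy1 (8.38% of other probes higher) and against Avl9 (9.77% higher). Against Nbea, 31.1% of other probes were higher than Ankfy1 and 28.5% higher than Avl9. The whole distribution is shifted furthest to the right for Nbea, with a median of 0.58.

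Nbea was the gene most tied to the level of its array. Its deviations had r = 0.92 with those of the median of the probes detected on all arrays, and the limma fit of all probes on that median gave Nbea an adjusted p of 0.0369. Ankfy1 (r = 0.59, adjusted p = 0.125), Epn2 (r = 0.51, adjusted p = 0.188) and Avl9 (r = 0.65, adjusted p = 0.0898) did not pass there, whereas 2617 of the 14519 probes did. Accordingly 1910 of 14518 other probes (13.2%) rose with Nbea at a limma adjusted p under 0.05, compared with 1 (0.00689%) for Avl9 and 0 for Ankfy1 and Epn2. The deviations ran against the blank mean of the array with r = −0.82 for Nbea, −0.75 for Avl9, −0.55 for Ankfy1 and −0.11 for Epn2, none past a limma adjusted p of 0.05 (0.132 to 0.831). With the blank mean held fixed, r of Avl9 and Nbea was 0.29 (two-sided permutation of residuals within groups, p = 0.437) and r of Epn2 and Nbea was 0.88 (permutation p = 0.0029). With the common median held fixed instead, a setting added after the data were seen, r of Avl9 and Nbea was 0.43 (permutation p = 0.281) and that of Epn2 and Nbea 0.37 (permutation p = 0.317). Permuting residuals is approximate with a covariate.

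The named genes that varied most like each member came from the study's lists, because no other probe could be given a symbol. For Ankfy1 they were LOC499823 (r = 0.93), LOC100360330 (r = 0.85) and Itga6 (r = 0.85), a laminin-binding integrin subunit. For Epn2 they were the kinase gene Taok2 (r = 0.84), Hap1 (r = 0.82), whose huntingtin-associated protein works in vesicle transport, and Lpcat3 (r = 0.80), a phospholipid-remodelling enzyme. For Avl9 they were Slc4a1 (r = 0.91), the anion exchanger of red blood cells, Usp20 (r = 0.90), a deubiquitinase, and Ky (r = 0.89), a muscle gene. None of these 9 passed a limma adjusted p of 0.05 (0.171 to 0.404). For Nbea, LOC100360330 (r = 0.95), Apold1 (r = 0.95), an endothelial early response gene, and Crem (r = 0.93), a cAMP-responsive transcription factor, each had a limma adjusted p of 0.0353, among the 1910 probes that did. These likenesses are over 10 arrays that share the array-wide level described above.

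Slc4a1 is the 1 red blood cell marker with a symbol here, and its mean was 21.2 ± 5.62 for control rats and 13.5 ± 4.30 for DEX rats (SD, n = 5 each). It is itself one of the selected lower mRNAs, and the part of blood in the Avl9 values was not tested. Of 30 marker genes for heart cell types, 4 had a symbol, all through the same list. The cardiomyocyte gene Ttn (24.6 ± 5.05 in control, 16.1 ± 1.75 in DEX, SD, n = 5) was detected in every rat, and the fibroblast gene Fap was 10.1 ± 2.02 and 6.59 ± 1.03. Ttn varied with Nbea (r = 0.85), Avl9 (r = 0.81) and Ankfy1 (r = 0.79) more than with Epn2 (r = 0.27).

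Of a list of 78 trafficking genes, 9 had a symbol here, the 4 genes and 5 others, and 69 could not be looked up. All 9 were past the thresholds in the lower direction and 0 in the higher, with a median log2 fold change of −0.63 against −0.17 over all probes. Since a symbol came only with selection, this count is no evidence about trafficking genes as a group. Dab2, a clathrin adaptor like Epn2, had a control mean of 37.1 ± 6.12 and a DEX mean of 24.3 ± 5.13 (SD, n = 5 each). Ehbp1, which links endosomal recycling to actin, had 26.3 ± 5.63 and 16.8 ± 3.29. The Rab GTPase activating genes Tbc1d2 and Tbc1d2b had control and DEX means of 5.79 ± 1.37 and 3.78 ± 1.03, and of 4.41 ± 0.960 and 2.84 ± 0.525. The autophagy membrane gene Atg9b had 3.78 ± 0.868 and 2.48 ± 0.537. In all 5 the groups overlapped.

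The 5 did not vary with the 4 genes as a block. Tbc1d2 was most like Nbea (r = 0.83) and Epn2 (r = 0.72), while Tbc1d2b ran against Epn2 (r = −0.52) and showed no relation to Nbea (r = −0.03). The clathrin adaptors Epn2 and Dab2 had r = −0.13 with each other, and Dab2 had r = 0.51 with Ankfy1. These r are over 10 arrays and are given as a description.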

How the data were processed

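Per the labels and the methods, total RNA of each rat was amplified, labelled with Cy5 and hybridized to 1 array, and the median of detected signals was set to 25. The deposited scanner files hold the spot intensity at 635 nm, and the deposited table holds normalized intensities that the authors rounded to whole numbers, used here as a score. Here 5% of the 1344 blank spots were trimmed at each end (68 spots), and the mean of the rest was subtracted. Spots above it by more than 2 SD of those remaining blanks, with unflagged gains, were scaled to a median of 25. This gave 142667 of the 142668 table values after rounding. Probes carry Ensembl identifiers only. A symbol was given where the ratio of linear group means and a t-test p-value on linear signals equalled those printed in the study's lists. The ratio had to match within 5.25e-07 where under 1, with a wider margin above 1, and the p-value within a relative difference of 0.0001. Either Student's or Welch's t-test could match: Welch's did for Ankfy1 and Student's for Epn2, Avl9 and Nbea. A match was found for 165 of 165 mRNAs, each at 1 probe. This is also how the 4 genes were found, and 162 of the 165 symbols are in RefSeq. The authors' ratio and p columns were used for nothing else.

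A probe was tested if at least 3 of the 5 rats of either group had it detected (14519 probes). Log2 signals were fitted with limma 3.58.1 (R 4.3.3), and an undetected spot took the smallest detected value on its array. Covariation used deviations from group means, with exact permutation of arrays within groups (Python 3.11.15, scipy 1.17.1), and a limma fit of every other probe on group and the gene, with Benjamini-Hochberg adjustment over all probes. The fits and the permutation test were tested on simulated data. Other genes were named by a rule: the 3 with a symbol most like each of the 4, and every trafficking gene with a symbol. The members and lists were chosen with earlier results of these data known. The number of arrays limits the precision. Samples were grouped by their titles, and each p-value measures the spread between single rats on 1 array each. Alternatives were the scaling, the background, the blank level, the filter, the test, array weights, a replicate block and leaving out each array. miRNA arrays were not analysed here. The values of 1 marker gene are not reported here.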

Additional observations from a re-analysis of the deposited data

How the results depend on the processing

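The log2 fold changes of Ankfy1, Epn2, Avl9 and Nbea were below 0 under all 21 alternatives run, which their choice on these same arrays favours. Leaving undetected spots missing could not change them, since each was detected on every array. Normexp used the scanner's background measure in place of the blank mean and added an offset of 50, whose part was not tested. With it the log2 fold changes were −0.0038, −0.013, −0.015 and −0.062. With the blank mean as a covariate they were −0.22, −0.54, −0.18 and −0.28. Leaving out 1 rat at a time gave −0.74 to −0.51, −0.79 to −0.51, −0.91 to −0.65 and −0.78 to −0.60. The count of probes past the thresholds, 392 lower and 64 higher, became 118 and 195 with quantile normalization, 216 and 121 with the 75th percentile, 114 and 193 scaled on common probes, 233 and 112 with no scaling, and 79 and 255 with the blank covariate. It was 105 lower with normexp, 239 lower over probes detected on all arrays, and 278 lower and 55 higher with Student's t-test on log2 signals. Leaving out 1 rat gave 211 (control rat 1) to 682 (control rat 5) lower, with 646 without DEX rat 1, and 26 (control rat 3) to 131 (control rat 4) higher, with 110 without DEX rat 3. The cause of these shifts was not tested.

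Pairs with an unadjusted p under 0.05 numbered 1 as reported, 3 in the deposited table, and 0 with quantile normalization, 75th percentile scaling, common-probe scaling, normexp or the common median as a covariate. Where the count stayed at 1, the pair could be another: with the blank covariate it was Epn2 and Nbea (r = 0.88, Avl9 and Nbea 0.29), and with linear signals Ankfy1 and Nbea (r = 0.83, Avl9 and Nbea 0.63). Ankfy1 and Nbea also had a higher r than Avl9 and Nbea in the deposited table (0.77 against 0.74), with no scaling (0.70 against 0.68) and with the replicate block (0.86 against 0.47), and likewise with the 75th percentile, common-probe scaling, the block-local blank and the common median. They numbered 0 to 2 when 1 rat was left out: 2 without control rat 2, and 0 without control rat 3, control rat 5 or DEX rat 1. The sign of r turned for Ankfy1 and Epn2 with quantile (−0.016), common-probe scaling (−0.050) and the common median (−0.11). It turned for Epn2 and Avl9 with quantile (−0.25), the 75th percentile (−0.0093), common-probe scaling (−0.18), the common median (−0.28) and without DEX rat 4 (−0.0032), the r without 1 rat ranging from there to 0.47. With normexp it turned for Ankfy1 and Avl9 (−0.28), Ankfy1 and Nbea (−0.32) and Epn2 and Nbea (−0.055). The block-local blank and the common median were chosen after seeing the data.

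Over probes, the deviations of same-numbered rats had r of −0.0975 to 0.0699. The blank mean, however, was lowest for rat 1 and highest for rat 5 in both groups. It was 57.1 and 60.5 units in the control group and 59.9 and 62.6 in the DEX group. Whether the numbers mark a shared order of the arrays was not tested. With the replicate block, 383 probes were lower and 66 higher, 0 pairs had p under 0.05 and r of Epn2 and Avl9 was −0.24. Limma's unadjusted p was under 0.05 for 3085 probes with the block and for 2100 without it. The fold changes are the same by construction: −0.63, −0.64, −0.76 and −0.70.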
